A study of Mus musculus with 2 samples.

Results

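The 9 myelin structural genes described here are Mbp, Mobp, Cnp, Mag, Mog, Opalin, Mal, Cldn11 and Ermn. They were chosen by symbol as genes of the myelin sheath, and all 9 were among the 31053 genes of the count matrices. RNA of single nuclei was sequenced in 2 libraries from the entorhinal cortex of male APP/PS1 mice, a transgenic line that deposits amyloid in the brain. The mice of both libraries carried the transgenes. In the OLE library the mice had received N-oleoyl-leucine (C18:1-Leu) (25 mg/kg/day, given through alkaline drinking water) between the ages of 15 and 18 months, and in the vehicle library DMSO over the same months. Each library was 1 pool of tissue from 5 mice, so that there was 1 sample per condition, no replicate error and no test. Intervals are exact 95% intervals (Poisson for sums, Clopper-Pearson for shares and ratios) and cover counting error only, not the spread between mice, and no difference between the libraries can be told apart from a difference between the pools.

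Myelin is a stack of membrane that an oligodendrocyte wraps around an axon, and it is held together by a small set of abundant proteins. Mbp (myelin basic protein) zips the inner faces of the membrane together, Mobp sits with it in compact myelin, and Cnp keeps cytoplasmic channels open between the layers. Mag and Mog are adhesion proteins of the inner and outermost surface, Opalin is a sialylated membrane glycoprotein, Mal is a proteolipid of lipid-raft trafficking, Cldn11 forms the tight junctions between the wraps, and Ermn (ermin) is a cytoskeletal protein of the mature cell. Oligodendrocyte precursors (OPCs) do not make myelin and switch these genes on as they differentiate, under transcription factors such as SOX10, OLIG2 and MYRF.

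The 150 bases before the start site were read for 8 of the genes from RefSeq promoters (GRCm38.p6). Those of 3 genes that were higher in OLE (Mal, Cldn11 and Mag) and of 2 that lay near a ratio of 1 (Mog and Opalin) are shown. These 5 windows hold no annotated exon, and neither does that of Ermn, which is not shown. Each runs 5′ to 3′ on the strand of the gene and ends at the base before the start, and capitals mark every match on either strand to ACAAAG or AACAAT (SOX10), CTGGCAC or CTGGTAC (MYRF) and CAGCTG (E-box).
Mal: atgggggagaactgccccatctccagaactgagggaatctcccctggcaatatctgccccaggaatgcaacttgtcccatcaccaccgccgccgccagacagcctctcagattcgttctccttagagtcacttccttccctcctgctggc
Cldn11: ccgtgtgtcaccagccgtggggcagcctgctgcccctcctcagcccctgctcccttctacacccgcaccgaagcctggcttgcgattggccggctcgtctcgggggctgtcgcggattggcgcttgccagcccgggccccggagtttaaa
Mag: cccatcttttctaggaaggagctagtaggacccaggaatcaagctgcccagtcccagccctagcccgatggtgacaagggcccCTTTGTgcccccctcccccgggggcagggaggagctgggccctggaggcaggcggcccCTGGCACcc
Mog: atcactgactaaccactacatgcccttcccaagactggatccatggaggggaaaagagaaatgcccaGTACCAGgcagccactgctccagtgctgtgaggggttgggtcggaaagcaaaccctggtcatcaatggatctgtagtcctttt
Opalin: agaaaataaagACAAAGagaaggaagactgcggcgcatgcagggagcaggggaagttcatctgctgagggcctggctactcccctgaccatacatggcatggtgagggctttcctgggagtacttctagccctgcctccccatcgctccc

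These windows lie at chr2:127656696-127656845 (minus strand, Mal), chr3:31149770-31149919 (plus strand, Cldn11), chr7:30914923-30915072 (minus strand, Mag), chr17:37023399-37023548 (minus strand, Mog) and chr19:41077114-41077263 (minus strand, Opalin). Mag had 3 start sites in the table, of which the outermost was taken. Of the 8 genes, 5 held at least 1 match (Mag, Mog, Opalin, Mobp and Cnp), against 24.4% of 32851 promoters of the same length. ACAAAG stood before 3 of the 8 genes and in 9.88% of all promoters, CTGGCAC before 2 and in 2.57%, and CTGGTAC before 1 and in 1.09%. AACAAT and CAGCTG matched none of the 8, against 5.31% and 8.39% of all. The windows of Mal, Cldn11 and Ermn held no match. Of the 4 genes higher in OLE, Mag and Cnp both held CTGGCAC, while Mal and Cldn11 held none of the 5 motifs.

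The gene bodies (GENCODE vM21, GRCm38) are Mal at chr2:127633226-127656695, Ermn at chr2:58045113-58052864, Cldn11 at chr3:31149920-31164324, Mag at chr7:30899176-30914873, Mobp at chr9:120149707-120181484, Cnp at chr11:100574904-100591729, Mog at chr17:37010743-37023398 and Opalin at chr19:41061710-41077113. Mbp lies on chromosome 18. On the opposite strand Cnp, Ermn, Mog and Mbp overlap Dnajc7, Galnt5, Gm22388 and Rpl21-ps8. The 3′ kit keeps the strand, but the strand setting of the counting is not given in the sources used here.

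There were 6745 nuclei in vehicle, with 70845739 UMIs (unique molecular identifiers, each marking 1 captured RNA molecule), and 6173 in OLE, with 69485537. After the top 5% of doublet scores had been removed, 12235 nuclei fell into 26 clusters, which were named from marker genes that include none of the 9. The oligodendrocyte-like class was 1 cluster of 588 vehicle and 529 OLE nuclei, 9.23% and 9.02% of those retained, with 17 of its 18 markers raised. The OPC-like class held 101 and 84 nuclei, with 12 of 12 markers raised and Pdgfra, Vcan and Cspg4 among its leading genes. The 4 clusters that stayed unnamed held 5432 nuclei, and 2 of them differed in share between the libraries: cluster 0 held 35.1% of vehicle and 5.29% of OLE nuclei, and cluster 1 held 3.84% and 29.5%. The libraries shared 14 cell barcodes, none of them oligodendrocyte-like.

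The 9 genes together marked the oligodendrocyte-like nuclei in both libraries. They gave 15614 of 2182624 UMIs there in vehicle and 14817 of 1791496 in OLE. Scaled to 1000000 UMIs of the class and library (CPM), that is 7154 CPM (95% interval 7042 to 7267) and 8271 CPM (8138 to 8405). An oligodendrocyte-like nucleus held a median of 24 UMIs of the 9 genes in vehicle, from 3 to 92, and 25 in OLE, from 6 to 252. The nucleus with 252 held 1.70% of the OLE sum. With every nucleus thinned to 1000 UMIs, 99.8% of these nuclei had at least 1 such UMI in each library, against 9.54% of glutamatergic-like nuclei in vehicle and 11.1% in OLE.

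The genes differed widely in level per unit of length, which matters because introns were counted in nuclear RNA. Per kilobase of gene, Mog and Mag were highest in oligodendrocyte-like nuclei, at 73.2 and 71.8 CPM in vehicle and 72.0 and 88.4 in OLE. Cldn11 (32.3 in vehicle and 41.2 in OLE), Mobp (30.4 and 35.9) and Opalin (30.1 and 29.1) followed. Mbp was at 23.5 and 26.1 and Ermn at 19.7 and 18.4, while Mal (12.8 and 23.9) and Cnp (9.29 and 12.2) were lowest in vehicle. In vehicle the counting intervals overlapped between Mog and Mag, and among Cldn11, Mobp and Opalin. In order of level per kilobase, Mog stood above Mag in vehicle, within counting error, and below it in OLE. Mal moved from below Ermn to above it. In CPM not divided by length, Mag was above Mog and Mal above Ermn in both libraries. Mbp led in UMIs, and its gene spans 110.5 kb, against 7.75 kb for Ermn and 31.8 kb for Mobp, the next longest.

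**Figure D1:**
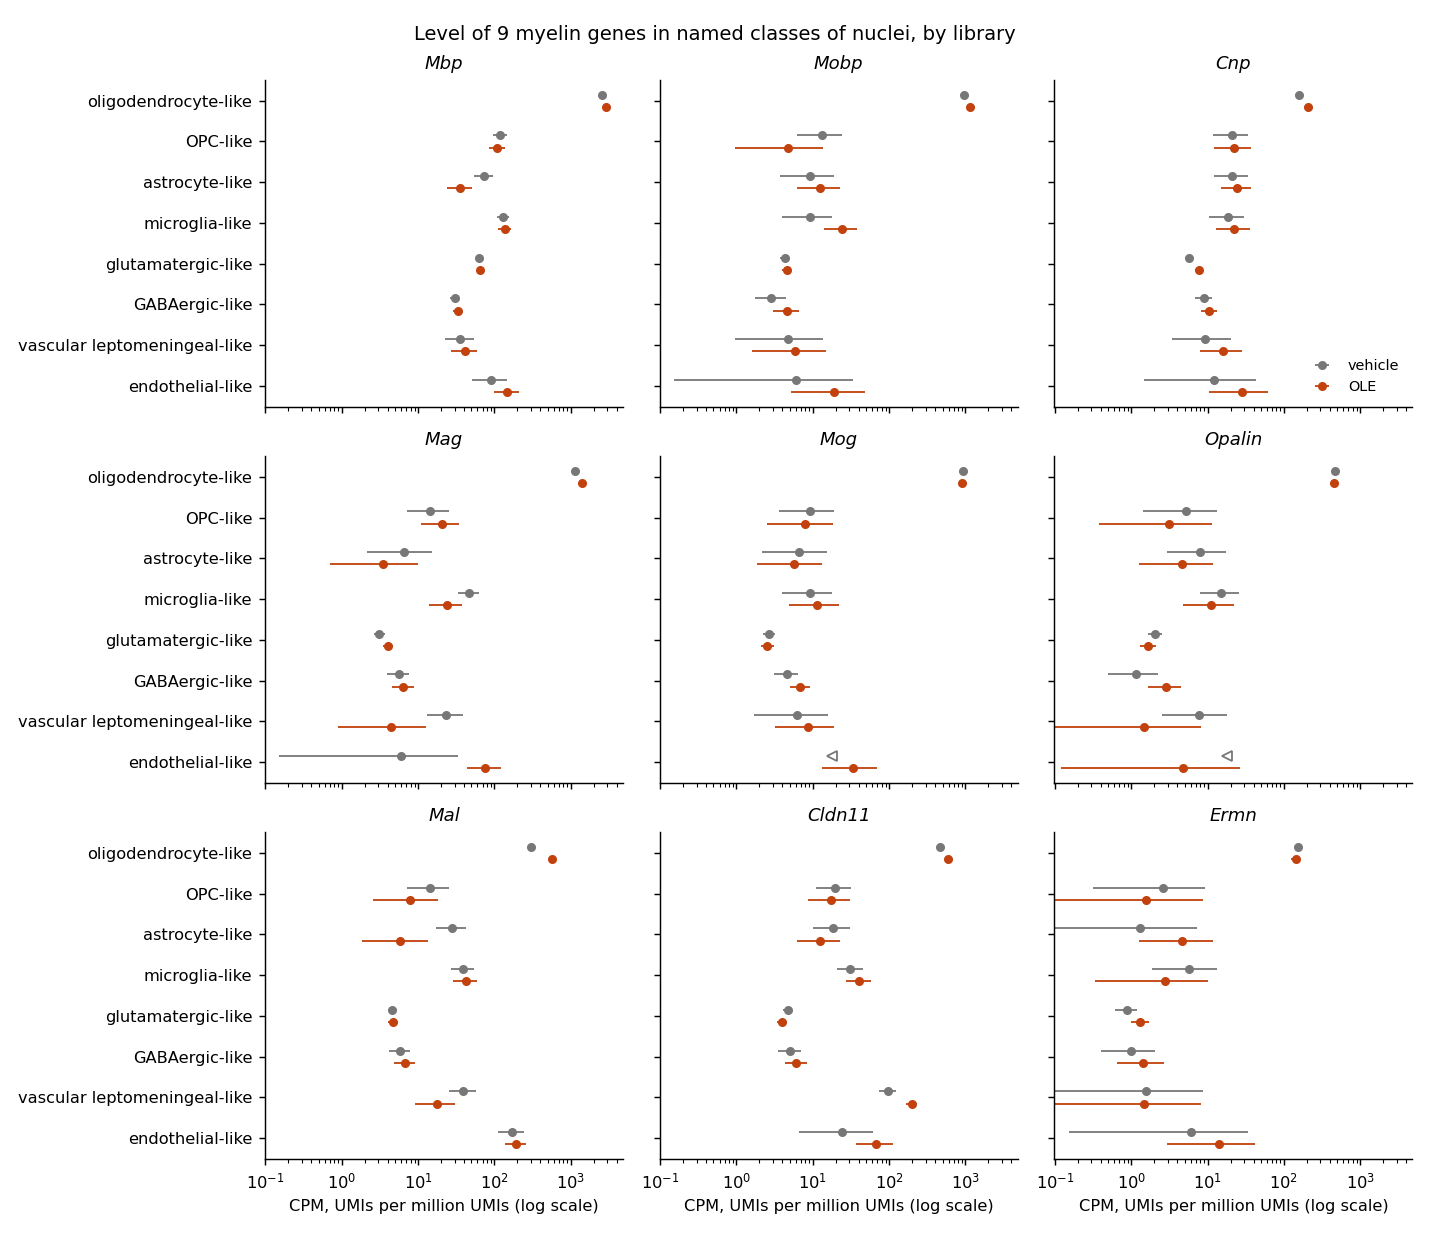
Level of each gene in 8 named classes of nuclei, in CPM on a log axis, with vehicle in grey and OLE in orange. Points are sums over the nuclei of 1 library, bars are exact Poisson 95% intervals (cut at the left edge where they reach below it), and open triangles mark the limit that a count of 0 allows. Every gene was highest in oligodendrocyte-like nuclei in both libraries, and Cldn11 and Mal had a next-highest class apart from the others (vascular leptomeningeal-like and endothelial-like).

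In oligodendrocyte-like nuclei 4 of the 9 genes were higher in OLE by a log2 ratio of at least 0.25 (1.19-fold), and 0 were lower by that size. Over all 5865 genes with at least 100 UMIs in these nuclei, 18.1% were higher and 10.5% lower by that size. The median log2 ratio (OLE over vehicle) of the 9 genes was 0.24, against 0.02 for all genes, and their summed UMIs gave 0.21 (0.18 to 0.24). With 1 library per condition these are descriptions of the libraries. Among genes of up to 30 kb, which includes 7 of the 9, the median over 1793 genes was 0.13, 32.0% were higher and 7.42% lower, so that short genes as a whole stood higher in the OLE library. Among the 1496 genes with at least 500 UMIs, a level all 9 genes reached, 5.88% were higher and 6.28% lower.

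Among the genes of compact myelin, Mbp had 5665 UMIs in vehicle and 5157 in OLE, or 2595 and 2879 CPM. Its log2 ratio was 0.15 (0.09 to 0.20). Mobp had 2110 and 2046 UMIs, or 967 and 1142 CPM, with a log2 ratio of 0.24 (0.15 to 0.33), just under the size of 0.25. For both genes the interval lay above 0, and the ratio was below those of Mal, Cnp, Cldn11 and Mag. A non-coding gene model, Gm38642, overlaps Mobp on the same strand, so that reads of the pair may have been shared.

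Mal, the raft proteolipid, differed most of the 9. It had 656 UMIs in vehicle and 1007 in OLE, or 301 (278 to 324) and 562 (528 to 598) CPM. The log2 ratio was 0.90 (0.76 to 1.05), which ranked 30 from the top among 5865 genes. At 1000 UMIs per nucleus, 25.7% of vehicle nuclei (22.2 to 29.5) and 42.5% of OLE nuclei (38.3 to 46.9) had a Mal UMI. Without thinning these shares were 59.7% and 76.7%. The higher sum in OLE was thus spread over more nuclei, and no OLE nucleus held over 1.29% of it.

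Cldn11, the tight-junction claudin of myelin, and Cnp, the enzyme of the cytoplasmic channels, were also higher in OLE. Cldn11 had 1015 and 1062 UMIs, or 465 and 593 CPM, a log2 ratio of 0.35 (0.22 to 0.48). It was found in 37.1% of thinned vehicle nuclei and 45.0% of OLE nuclei. Cnp had only 341 and 369 UMIs, or 156 and 206 CPM, and its log2 ratio of 0.40 (0.18 to 0.62) was the least precise of those above 0.25. Its shares of thinned nuclei, 16.4% (13.5 to 19.6) and 19.5% (16.2 to 23.1), overlapped in their intervals.

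The surface proteins did not go together. Mag, at the membrane next to the axon, had 2461 and 2486 UMIs, or 1128 and 1388 CPM, a log2 ratio of 0.30 (0.22 to 0.38), and 64.6% and 75.4% of thinned nuclei had a UMI. Mog, at the outermost surface, had 2021 and 1632 UMIs, or 926 and 911 CPM, a log2 ratio of -0.02 (-0.12 to 0.07), and 59.1% and 55.4% of thinned nuclei had a UMI. The intervals of Mag and Mog did not overlap. Opalin had 1011 and 803 UMIs, or 463 and 448 CPM, a log2 ratio of -0.05 (-0.18 to 0.09). Ermn had 334 and 255 UMIs, or 153 and 142 CPM, a log2 ratio of -0.10 (-0.35 to 0.14). The intervals of Mog, Opalin and Ermn all held 0, and for Ermn a difference of 0.25 downwards was within counting error.

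**Figure D2:**
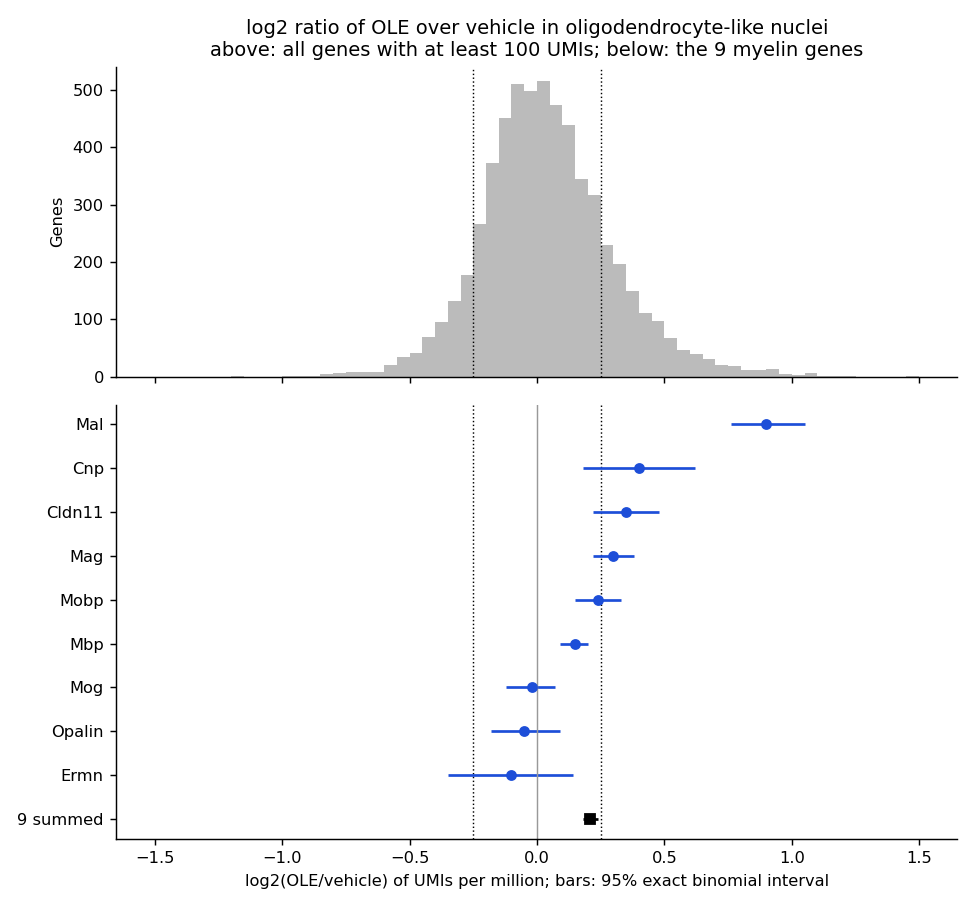
The log2 ratio of OLE over vehicle in oligodendrocyte-like nuclei, as a histogram of the 5865 genes with at least 100 UMIs (above) and for each of the 9 genes and their sum with exact 95% intervals (below). Dotted lines mark 0.25 in either direction, and Mal at 0.90 lies in the right tail while Mog, Opalin and Ermn lie near 0.

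Other measures differed between the oligodendrocyte-like nuclei of the libraries as well. The median depth was 3493.5 UMIs per nucleus in vehicle and 3085 in OLE. A list of 20 RNAs abundant in neurons, meant as a measure of free RNA, gave 28962 CPM in vehicle and 26411 in OLE. All 20 of its genes were detected in the class. Ptprd alone gave 8038 and 7514 CPM there, against 1754 and 1445 in OPC-like nuclei. The list therefore cannot tell free RNA from RNA made in the class. Mitochondrial genes gave 1.24% and 1.19% of UMIs and the nuclear RNA Malat1 39856 and 41496 CPM. With the 25% of nuclei richest in the RNAs of this list left out, the median of the 9 genes was 0.22 and 4 were again past 0.25. The parts of depth and of free RNA in the result were not tested.

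Clustered again without the 9 genes, the oligodendrocyte-like nuclei gave 3 subclusters, each of similar share in both libraries. Subcluster 0 (236 vehicle and 201 OLE nuclei) was led by mitochondrial genes, subcluster 1 (168 and 163) by Enpp6, 9330111N05Rik and Tln2, and subcluster 2 (184 and 165) by 9630013A20Rik, Synpr and Kirrel3. The summed level hardly differed between them. It was 7152, 7229.6 and 7069 CPM in vehicle and 8236, 8261 and 8321 in OLE. Single genes did differ between subclusters in both libraries. Opalin was lowest in subcluster 1, at 333 CPM in vehicle and 286 in OLE, against 497 and 492 in subcluster 0 and 572 and 580 in subcluster 2. Ermn was highest in subcluster 1, at 187 (157 to 221) and 158 (128 to 192), although these intervals overlapped those of the other subclusters.

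Mal was higher in OLE in each subcluster, with log2 ratios of 1.04 (0.82 to 1.27), 0.72 (0.43 to 1.01) and 0.87 (0.63 to 1.13) in subclusters 0, 1 and 2. Cldn11 was also higher in each, at 0.39, 0.25 and 0.42, and all 3 of its intervals lay above 0. Mobp was not even, at 0.07 (-0.09 to 0.22) in subcluster 0 and 0.41 (0.27 to 0.56) in subcluster 1, and these intervals did not overlap. Mag was at 0.21, 0.24 and 0.47, with all 3 intervals above 0. Cnp was at 0.61 and 0.50 in subclusters 0 and 1 but 0.02 (-0.38 to 0.43) in subcluster 2. The intervals of Mog, Opalin and Ermn held 0 in all 3 subclusters. Nuclei of a subcluster share 1 library per condition, so the subclusters are not replicates.

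**Figure D3:**
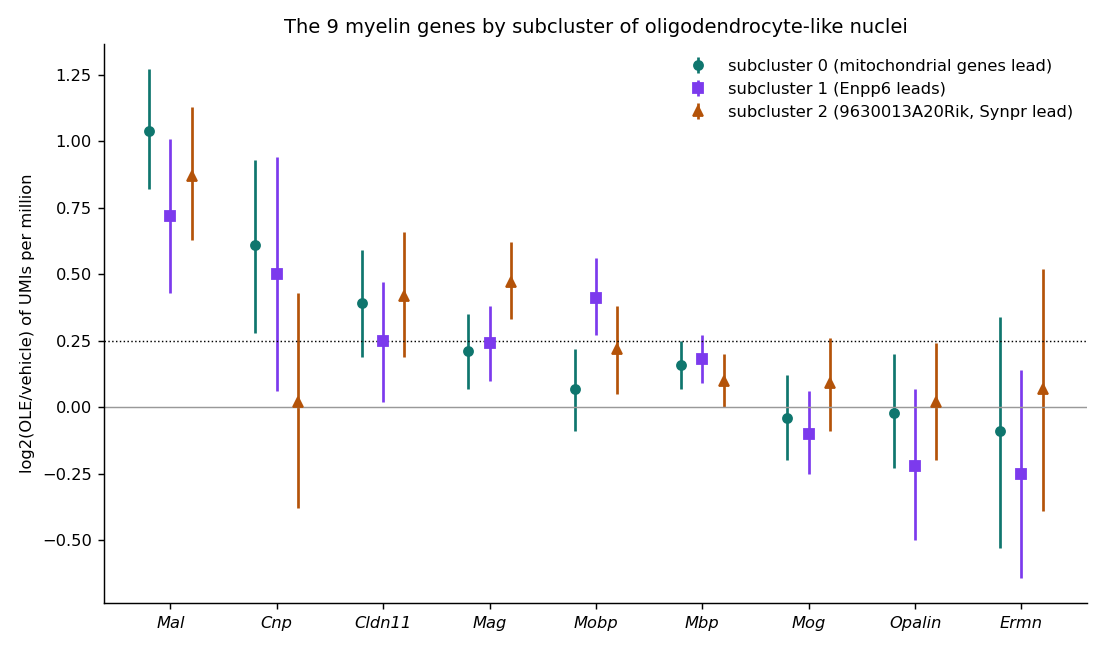
The log2 ratio of OLE over vehicle of each gene within the 3 subclusters of oligodendrocyte-like nuclei, with exact 95% intervals. Mal is above 0 in each of them (0.72 to 1.04), and Mobp and Cnp spread more between subclusters than Mbp (0.10 to 0.18).

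Nucleus by nucleus, the 9 genes did not rank together. Over the 36 pairs, Spearman's rho between thinned counts ran from -0.0966 to 0.110 over 587 vehicle nuclei and from -0.104 to 0.0930 over 529 OLE nuclei, with medians of 0.00665 and 0.00381. The nuclei of a library share their depth after thinning, and counts of 1000 UMIs per nucleus are sparse, so these weak values are given as a description only.

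The other genes of myelin and its cell were read from 4 lists of 64 genes, of which 60 had at least 100 UMIs in oligodendrocyte-like nuclei. Their median log2 ratio was 0.13, with 17 higher by at least 0.25 (28.3%) and 0 lower, against 18.1% and 10.5% of all genes, and 32.0% and 7.42% of genes of up to 30 kb. Membrane and junction genes stood at a median of 0.19 (6 of 19 higher), cytoskeletal genes at 0.09 (3 of 15), lipid and metabolic genes at 0.08 (4 of 14) and transcription factors at 0.09 (4 of 12), counts of 20.0% to 33.3% of a list. The highest of those with at least 200 UMIs were Cd9, a tetraspanin, at 0.96 (0.77 to 1.16; 345 and 552 UMIs in vehicle and OLE), Olig1, an oligodendrocyte transcription factor, at 0.92 (0.59 to 1.25; 129 and 200 UMIs), and Gpr37, a receptor of the mature cell, at 0.74 (0.51 to 0.97). The lowest were Fdft1, the squalene synthase of cholesterol synthesis, at -0.21 (-0.60 to 0.18), St18, a zinc-finger factor, at -0.14 (-0.19 to -0.09), and Elovl7, a fatty acid elongase, at -0.12 (-0.28 to 0.04). Of the factors whose motifs were searched, Sox10 was at 0.04 (-0.12 to 0.20), Myrf at 0.16 (-0.05 to 0.36) and Olig2, with 76 and 59 UMIs, at -0.08 (-0.60 to 0.43).

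In OPC-like nuclei the 9 genes lay within the range of levels in other glia that should lack them. They gave 168 UMIs in vehicle and 123 in OLE, or 218 (186 to 254) and 192 (160.0 to 229.7) CPM, 3.05% and 2.33% of the level in oligodendrocyte-like nuclei. Microglia-like nuclei, which do not make myelin, held 304 (268 to 343) and 315 (275 to 359) CPM. Mbp made up 54.8% (46.9 to 62.4) and 56.1% (46.9 to 65.0) of the OPC-like sum, a larger share than in oligodendrocyte-like nuclei. In each library a single nucleus held 34.8% of these Mbp UMIs, which the intervals do not reflect. Astrocyte-like nuclei, nearer in depth to the OPC-like (medians of 5843 and 5740 UMIs), held 171 (143 to 204) and 109 (87.9 to 133) CPM, so that the OPC-like level was above theirs in OLE. Per nucleus, the OPC-like class held 1.66 and 1.46 UMIs of the 9 genes, the microglia-like class 0.793 and 0.840 and the astrocyte-like class 1.09 and 0.699. Free RNA and expression in precursors cannot be told apart from these values. After thinning, 15.8% and 14.3% of OPC-like nuclei had a UMI of the 9 genes, against 31.3% and 25.9% of microglia-like nuclei, and the median depths were 7046 and 7313 UMIs in the OPC-like and 2441 and 2348 in the microglia-like class. A single nucleus gave 25.0% of the OPC-like sum in vehicle (42 UMIs) and 22.8% in OLE (28 UMIs). Only Mbp passed 100 UMIs, with 92 and 69, a log2 ratio of -0.15 (-0.62 to 0.32), and the sum gave -0.18 (-0.53 to 0.16). Over all 2584 genes tested in this class, 15.6% were higher and 16.5% lower by 0.25. No difference in precursors was detectable at this depth.

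Of the 64 genes of the other lists, 27 passed 100 UMIs in OPC-like nuclei. Their median was 0.06, against -0.02 for all genes of the class. By at least 0.25, 9 were higher (33.3%) and 3 lower (11.1%), against 15.6% and 16.5% of all genes. Cd9 and Olig1 were also higher in OPC-like nuclei of the OLE library, at log2 ratios of 1.19 (0.87 to 1.52) and 0.72 (0.34 to 1.10).

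Outside the lineage, the makeup of the 9 genes was set against that in oligodendrocyte-like nuclei. That makeup is of RNA counted within nuclei, introns included, and need not be the makeup of free RNA. The source of the RNA outside the lineage was therefore not tested. In oligodendrocyte-like nuclei Mbp gave 36.3% of the UMIs in vehicle and 34.8% in OLE. The unnamed cluster 0 in vehicle and cluster 1 in both libraries had nearly that share, at 34.9%, 34.9% and 35.9%, with summed levels of 648, 653 and 628 CPM. Cluster 0 of OLE, with 378 UMIs of the 9 genes, had 29.9% (25.3 to 34.8). The other unnamed clusters had larger Mbp shares. Cluster 3 had 57.0% (53.4 to 60.5) in vehicle and 52.4% (48.9 to 55.9) in OLE, at summed levels of 1150.1 and 964 CPM. Cluster 20 had 52.8% (42.9 to 62.5) and 53.2% (41.5 to 64.7), at 83.9 and 58.0 CPM. In cluster 0 of vehicle and cluster 1 of OLE, shares of other genes departed further from those of oligodendrocyte-like nuclei. Those of Mal, Cldn11 and Cnp went upwards and those of Mobp, Mag and Mog downwards. The share of Opalin was also lower in both, by less, and that of Ermn was higher, mainly in cluster 1 of OLE. Mal gave 11.8% of the sum in cluster 0 of vehicle and 11.6% in cluster 1 of OLE, against 4.20% and 6.80% in the oligodendrocyte-like nuclei of the same libraries. Cldn11 gave 12.9% and 11.4%, against 6.50% and 7.17%. Cnp gave 5.02% and 5.87%, against 2.18% and 2.49%, and Mobp 7.37% and 9.24%, against 13.5% and 13.8%. Mag gave 11.9% and 10.7%, against 15.8% and 16.8%. Within cluster 0 Mal was at 76.6 CPM in vehicle and 85.0 in OLE, a log2 ratio of 0.15 (-0.30 to 0.57). Within cluster 1 it was at 75.7 and 73.1 CPM, a log2 ratio of -0.05 (-0.36 to 0.28). Both intervals lay below that of Mal in oligodendrocyte-like nuclei (0.76 to 1.05). The part of free RNA in the Mal difference was not tested.

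Glutamatergic-like nuclei had the highest Mbp share of all classes and unnamed clusters. The 9 genes gave only 90.5 (87.7 to 93.3) and 95.6 (92.6 to 98.7) CPM there, but Mbp made up 69.0% of them in vehicle (67.6 to 70.4) and 68.2% in OLE (66.7 to 69.7). Mbp was thus at 2.41% and 2.27% of its oligodendrocyte-like level, while the other 8 together were at 0.615% and 0.563% of theirs. In GABAergic-like nuclei, at similar depth (medians of 18542 and 16628 UMIs against 21128 and 19468), Mbp made up 46.2% (41.5 to 50.9) and 42.3% (37.9 to 46.7) and was at 1.16% of its oligodendrocyte-like level in each library. As background, the Mbp locus also encodes Golli transcripts from an upstream start, which neurons can express; the count of a gene here does not tell these from the myelin transcripts.

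**Figure D4:**
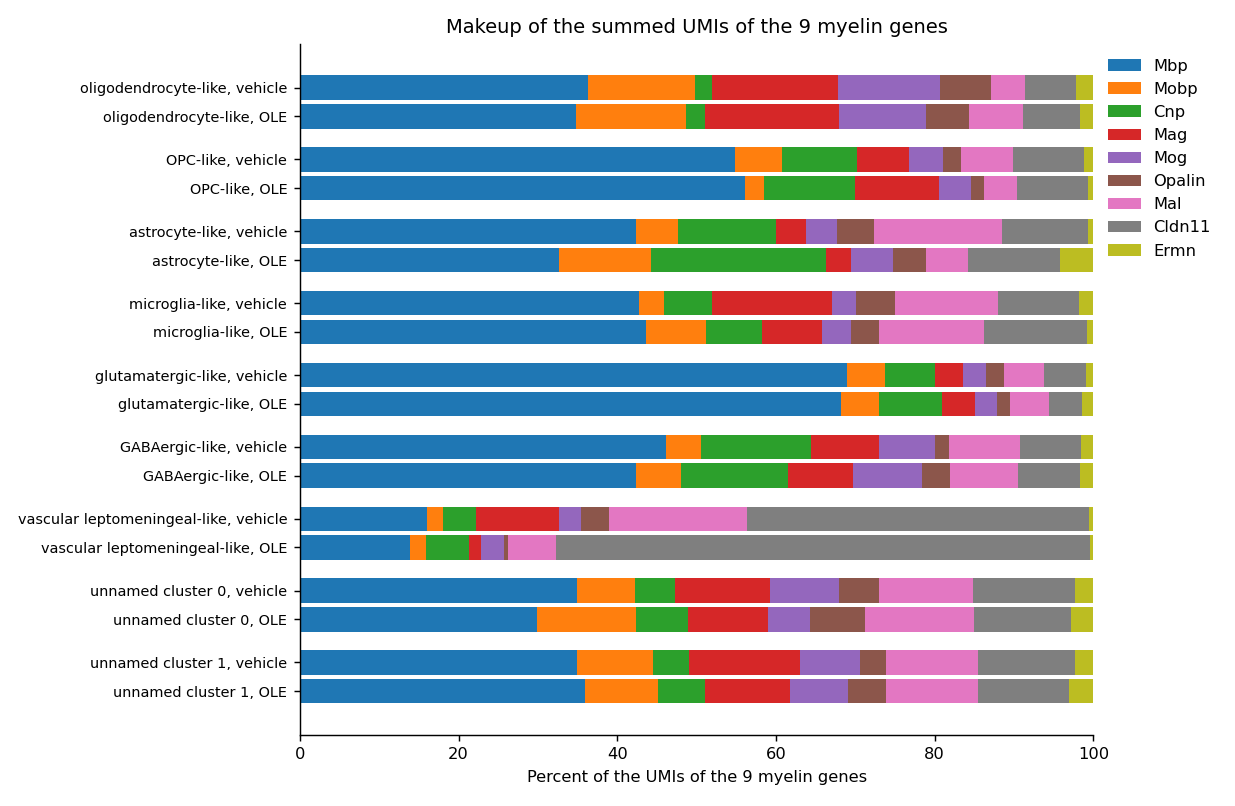
Share of each gene among the UMIs of all 9, in percent, for 7 named classes and 2 unnamed clusters in each library. Mbp (blue) takes 69.0% and 68.2% in glutamatergic-like nuclei against 36.3% and 34.8% in oligodendrocyte-like nuclei, and Cldn11 (grey) takes the largest share in vascular leptomeningeal-like nuclei.

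Mbp varied between clusters of glutamatergic-like nuclei, and in a like way in both libraries. Over 13 clusters it ran from 32.3 to 105 CPM in vehicle (3.25-fold) and from 36.4 to 99.3 in OLE (2.72-fold), whereas the other 8 genes together ran from 20.4 to 34.1 in vehicle (1.67-fold) and from 21.2 to 48.1 in OLE (2.27-fold). The lowest was cluster 11, led by Nell1 and Htr2c, with 32.3 (25.0 to 41.0) and 36.4 (28.9 to 45.3). Cluster 17, led by Fam19a1 and L3mbtl4, was at 97.3 (87.6 to 108) and 99.3 (88.5 to 111), with intervals far above those of cluster 11. Cluster 24, the smallest with 38 and 42 nuclei, was at 105 and 91.2. Clusters 11 and 17 also had the lowest and highest median depth of the 13, at 12536 and 30053 UMIs per nucleus, both libraries together. Kind of nucleus and depth therefore cannot be told apart for that pair. Cluster 24 lay between them in depth, at 19162. The OLE library did not move this pattern, and the log2 ratio of Mbp over all glutamatergic-like nuclei was 0.06 (-0.01 to 0.14). The sum of the 9 genes gave 0.08 (0.02 to 0.14) there, against a median of 0.07 over 14139 genes in this class, of which 20.8% were higher and 3.17% lower by 0.25. Of the 8 myelin genes with at least 100 UMIs, 2 were higher by that size (Cnp and Mag) and 1 lower (Opalin).

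**Figure D5:**
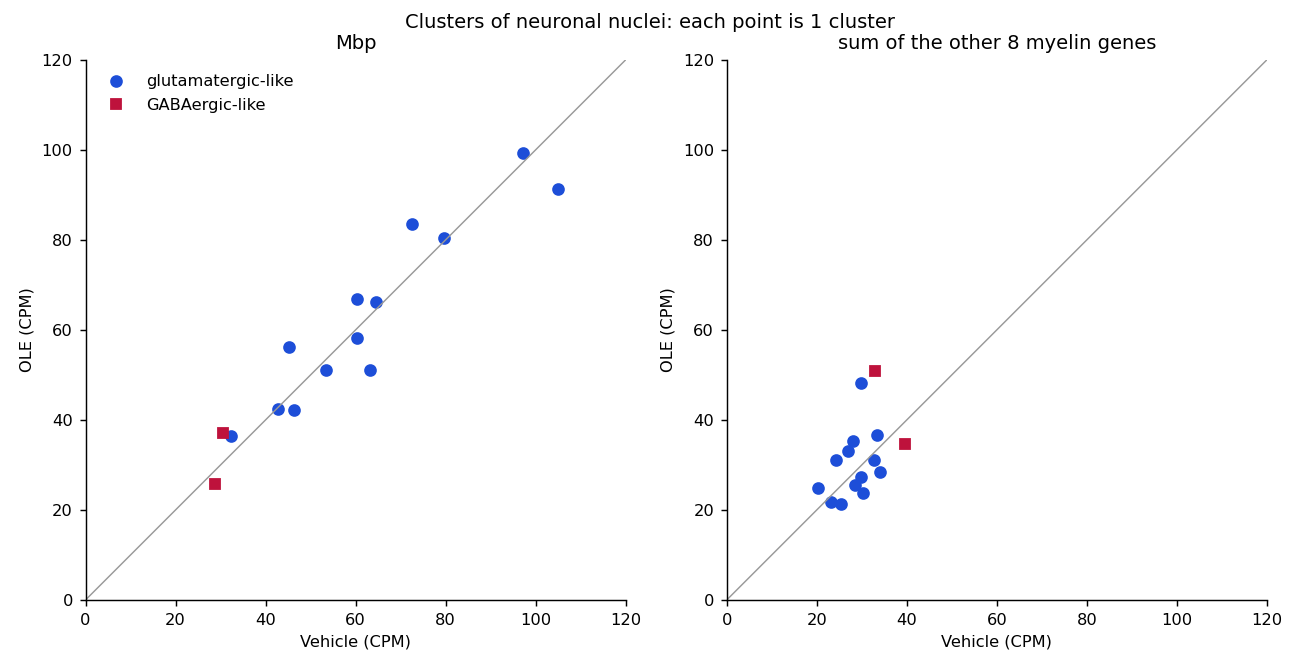
Level in vehicle against level in OLE, in CPM, for each of 13 glutamatergic-like (circles) and 2 GABAergic-like clusters (squares), with Mbp on the left and the sum of the other 8 genes on the right. Mbp spreads along the line of equal levels from 32.3 to 105 in vehicle, and the other 8 lie between 20.4 and 39.5 in vehicle and between 21.2 and 51.0 in OLE.

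Cldn11 had a place of its own in vascular leptomeningeal-like nuclei. It gave 62 UMIs in vehicle and 136 in OLE there, or 96.9 and 199 CPM, more than any of the other 8, and Mbp made up only 16.0% and 13.9% of the sum. This signal was in 1 of the class's 2 clusters. Cluster 22, led by Bnc2, Adamtsl3 and Slc47a1, held 145 CPM in vehicle (111 to 188) and 278 in OLE (232 to 330.4), against 12.8 (2.64 to 37.4) and 35.7 (15.4 to 70.3) in cluster 23, led by Ranbp3l and Slc7a11. As background, arachnoid barrier cells join by tight junctions that hold claudin 11. Cluster 22 had 42 nuclei in each library, and over the class the log2 ratio of Cldn11 was 1.04 (0.59 to 1.49).

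Mal likewise stood out in endothelial-like nuclei, at 168 CPM in vehicle (28 UMIs) and 189.7 in OLE (40 UMIs), where it exceeded Mbp at 89.9 and 147. In vehicle 1 nucleus held 39.3% of these Mal UMIs (11 of 28), and 23.8% of the nuclei had any. That class held only 21 and 42 nuclei, and its leading genes include markers of mural cells. A single nucleus gave 25.0% and 25.4% of its summed UMIs. Mog and Opalin were at 0 UMIs there in vehicle, which allows up to 18.0 CPM by a limit of 3 counts. In astrocyte-like nuclei Mal went from 21 UMIs in vehicle to 5 in OLE, and the sum of the 9 genes from 171 to 109 CPM, a log2 ratio of -0.66 (-1.05 to -0.26), at 130 and 95 UMIs. Microglia-like nuclei had a log2 ratio of 0.05 (-0.21 to 0.31) and GABAergic-like nuclei 0.28 (0.09 to 0.47). The medians over all genes were -0.03 in astrocyte-like, -0.02 in microglia-like and 0.08 in GABAergic-like nuclei. In the unnamed clusters 0 and 1 the sum gave -0.07 (-0.23 to 0.08) and -0.06 (-0.16 to 0.05). The 9 genes thus had no common direction between the libraries over these classes and clusters. Free RNA and expression were not told apart in them.

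The genes outside the 9 whose level followed their sum most closely over the 8 named classes and both libraries (16 points) were Qdpr, Prr5l, St18, 9330111N05Rik and Wdr20. Pearson's r of log2 levels was 0.9676, 0.9674, 0.9655, 0.9631 and 0.9615, among 12073 genes ranked. The points share 2 libraries and their depths, so the values are a description. None of these 5 was higher in OLE by a log2 ratio of 0.25 in oligodendrocyte-like nuclei, where 18.1% of all genes were. 9330111N05Rik was lower by that size, at -0.29, as were 10.5% of all genes. The log2 ratios of the others ran from -0.19 to 0.01.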

How the data were processed

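Nuclei of pooled frozen entorhinal cortex were captured with the 10X 3′ v3 kit. The authors aligned the reads to an mm10 pre-mRNA reference (introns counted), with Cell Ranger 3.0.1 per the labels and 3.0.2 per the file headers, and deposited whole-number counts of UMIs per gene and nucleus. Their methods name Seurat 4.0.4 and a removal of doublets.

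Scrublet (scanpy 1.11.5, expected rate 5%) called 0.119% of vehicle and 0.113% of OLE nuclei by itself, so the top 5% of its scores (372 and 311 nuclei) was left out. SCTransform (sctransform 0.4.2 in Seurat 5.3.0, R 4.3.3) gave 3000 variable genes, less the 9 myelin genes, and the Louvain method clustered the nuclei (30 components, 20 neighbours, resolution 0.4). A cluster was named from at least 3 raised markers (4 times the 10th percentile of clusters and in 10% of nuclei), and stayed unnamed where other classes' markers led or at least 60% of them were raised. This rule was revised with the clusters in view. The unnamed clusters 3 and 20 held 5.44% and 1.02% of vehicle and 7.15% and 1.31% of OLE nuclei.

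UMIs were summed per class and library and scaled per 1000000 UMIs, and log2 ratios took no pseudocount. Genes needed 100 UMIs in the class, both libraries together. Thinned nuclei hold 1000 UMIs. The search for like patterns used a pseudocount of 10 and genes of 500 or more UMIs, and the subclusters 15 components of 1500 genes. Text names all 9 myelin genes and, of the other lists, the 3 highest and 3 lowest ratios among genes of 200 or more UMIs. The 9 genes and the lists, written from general knowledge, were chosen with earlier results of these data known. The calculation of ratios and their intervals was checked on simulated counts (numpy 2.4.6, scipy 1.17.1, pandas 2.3.3, Python 3.11.15). Positions come from GENCODE vM21, which matched 99.6% of identifiers.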

Additional observations from a re-analysis of the deposited data

How the results depend on the processing

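No paired analysis was possible because each condition is 1 library, and for the same reason no library could be left out. The alternatives changed the clustering genes, the normalization, the resolution, the doublets, the scaling, the weight of nuclei, the mitochondrial share, the share of the neuronal list and the filter. The filter at 500 UMIs and the fit without the subcluster led by mitochondrial genes were added later, with the data in view (chosen after seeing the data). In oligodendrocyte-like nuclei the median of the 9 genes ran from 0.22 to 0.28 over 11 alternatives, the count past 0.25 from 4 to 5, and the median of the other myelin genes from 0.09 to 0.14. Of 99 values of single genes under alternatives, 97 stayed within the counting interval. The exceptions came with every nucleus thinned to 1000 UMIs, where Mog went to -0.16 and Ermn to 0.23, and the cause was not tested. Some alternatives were no challenge to the 9 genes in this class. The filters at 20 and 500 UMIs could not move their values, since all 9 pass both. Resolution 0.8 gave the same counts of 588 and 529 nuclei as the main setting, and the same values. In OPC-like nuclei the median rests on Mbp alone (on 4 genes with the filter at 20 UMIs), and it ran from -0.16 to 0.20, the latter without doublet removal. In glutamatergic-like nuclei the log2 ratio of the sum was 0.01 without doublet removal, 0.01 when centred on the median gene (a shift of 0.07) and 0.24 with thinned nuclei, against 0.08, so its size depends on these settings. Depth limits the values of the small classes: the 9 genes gave 95 to 202 UMIs per library in OPC-like, astrocyte-like and vascular leptomeningeal-like nuclei, and 52 and 122 in endothelial-like nuclei.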

Other observations

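Marker lists of other states of the lineage were read in the same oligodendrocyte-like nuclei. Of 8 genes that mark disease-associated oligodendrocytes, 5 had at least 100 UMIs, with a median log2 ratio of 0.31. Of these, 3 were higher by at least 0.25, against 18.1% of all genes and 32.0% of genes of up to 30 kb. Other named classes also had a positive median for this list. In microglia-like nuclei 4 of 4 genes that passed were higher (median 0.64), against 14.7% of all genes there. The counts were 2 of 2 in astrocyte-like (0.50, against 15.8%), 4 of 4 in vascular leptomeningeal-like (1.23, 20.2%) and 3 of 3 in endothelial-like nuclei (0.84, 27.9%). They were 2 of 3 in GABAergic-like (0.29, 24.3%), 3 of 7 in glutamatergic-like (0.18, 20.8%) and 1 of 1 in OPC-like nuclei (0.32, 15.6%). Of 7 genes each, unnamed cluster 0 had 1 higher and 1 lower (0.07) and cluster 1 had 1 higher and 2 lower (-0.12). Cluster 3 had 0 higher and 1 lower of 3 (0.05). In oligodendrocyte-like nuclei Apod, a lipid carrier, was at 0.52 (0.40 to 0.63) with 1139 UMIs in vehicle and 1338 in OLE. H2-D1, an antigen-presentation gene, was at 0.77 (0.26 to 1.28) there, with 58 and 81 UMIs. The complement gene C4b (0.06, -0.10 to 0.21) and the alarmin Il33 (-0.03, -0.15 to 0.09) had intervals that held 0. Of 10 genes of newly formed oligodendrocytes, 7 passed the filter at a median of 0.11. Of these, 1 was higher by at least 0.25 (14.3%) and 0 were lower, against 18.1% and 10.5% of all genes. Tcf7l2 was the higher gene, at 0.31 (-0.05 to 0.66). Enpp6, with 272 and 251 UMIs, was at 0.17 (-0.08 to 0.42). Bcas1, which marks early myelinating cells, was at 0.00 (-0.11 to 0.11), and Gpr17 and Bmp4 were near absent, with 7 and 9 UMIs and 5 and 7 UMIs. These genes were named after their values had been seen.

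Among lipid genes outside the rule for named genes, Scd2, a fatty acid desaturase, stood at 0.65 (0.54 to 0.76) in oligodendrocyte-like nuclei (1223 and 1575 UMIs) and at 0.83 (0.48 to 1.19) in OPC-like nuclei. Ptgds, the prostaglandin D synthase, was at 0.59 (0.49 to 0.69) in the former, with 1394 and 1723 UMIs, and at -0.10 (-0.48 to 0.29) in OPC-like nuclei. Both were chosen after their values had been seen, and with 1 library per condition neither difference was tested.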
